A study of Mus musculus with 6 samples.

Results

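High-score GL261 cells are the cells of the serum-grown mouse glioma line GL261 with the highest share of RNA from 10 replication genes. They were chosen in each of the 2 GL261 libraries among barcodes with at least 8000 UMIs (counted molecules), at least 500 genes and under 10% mitochondrial UMIs. Each cell's score was the summed UMIs of Mcm2, Mcm3, Mcm4, Mcm5, Mcm6, Gins2, Cdc6, Ung, Uhrf1 and Dtl divided by its total UMIs, and the top 10% of each library were taken. That gave 387 cells in GL261 replicate 1 and 410 in replicate 2, in all 797 of 7975 GL261 cells and of 22868 cells of the series under the same limits. The bottom 50% of the score in the same library, 1937 and 2050 cells, served as the comparison and are called low-score cells here. The remaining 1551 and 1640 cells lay between. The rule was meant to take cells in S phase, and the data followed that name only in part. Of 150 tested genes of the replication programme outside the score 83 rose in the chosen cells, against 3.25% called higher over all tested genes. But replication-dependent histone genes were highest in the middle of the score range. Of 14 with at least 400 UMIs 0 were highest in the top decile, against 2483 of 10611 tested genes. Against low-score cells with little mitotic RNA, a comparison chosen after the data were seen, most tested histone genes were higher in the chosen cells. The cells are therefore called by their score. The gene lists were chosen with earlier results of these data known. DNA content and DNA synthesis were not analysed here.

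The series holds 6 droplet libraries of 5' single-cell RNA-seq from mouse. GL261, an established glioma line labelled as a glioblastoma cell, was kept in a differentiation medium with fetal calf serum and is represented by 2 libraries. GL261-GSCs, the culture labelled as glioblastoma stem cells, grew in a defined medium for such cells, and in its 4 libraries the same rule chose 1487 high-score and 7445 low-score cells. No treatment, allele, strain or age is named in the labels, and both cultures share the GL261 origin. Cells and neurospheres were dissociated with Accutase and met a detergent lysis buffer, and the labels leave it undecided whether whole cells or nuclei were captured. They also do not say whether replicates were separate cultures, so every p-value measures only the spread between these libraries.

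Before replication, the origin recognition complex, Cdc6 and Cdt1 load the ring-shaped MCM helicase onto DNA during G1. E2F transcription factors, held back by the retinoblastoma protein until cyclin-dependent kinases release them, switch on most of the genes for this machinery, and Cdc45 and the GINS complex then start the helicase at the onset of S phase. Mitotic genes follow later, in G2, and many of them carry a short promoter element called the cell cycle genes homology region, or CHR. Histone mRNAs of the replication-dependent kind are made during DNA synthesis itself. Cultured glioma lines divide continuously in serum, so cells at all of these stages are mixed in a dish.

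The score set the members, and its genes are described without a test. The lowest member had a score of 17.5 per 10000 UMIs in replicate 1 and 17.0 in replicate 2, and the median member had 20.2 and 19.2. Low-score cells had a median of 4.06 and 4.34 and reached at most 7.38 and 7.48. RNA in barcodes with 100 to under 1000 UMIs, which are mostly empty droplets, scored 6.85 and 7.45, above the median low-score cell and far below every member. The median member carried 36 and 29 score UMIs against 6 and 6 in low-score cells. After each cell was thinned to 8000 UMIs, the median member showed 7 of the 10 score genes in both libraries, and the median low-score cell showed 2 and 3.

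The 5 MCM subunits in the score form the helicase ring together with Mcm7. In CPM (counts per 1000000 UMIs, scaled by TMM), Mcm3 stood at 422 and 391 in members and at 87.8 and 95.5 in low-score cells of replicates 1 and 2. Mcm5 stood at 271 and 263 against 55.5 and 60.2. Cdc6, the loading factor for the helicase, had the widest relative gap of the 10, with 106 and 103 in members against 7.86 and 8.13. Ung, which removes uracil from DNA, was at 61.4 and 58.4 against 7.86 and 7.52. Uhrf1, which carries DNA methylation across replication, was at 215 and 208 against 40.3 and 44.9, and the helicase activator Gins2 was at 95.9 and 94.8 against 24.3 and 29.8. Both libraries gave nearly the same levels in both classes.

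The cut was made along a continuous range, and the members are a range of the score, not a separate cell type. The 5% of cells just inside it (193 and 205 cells) had median scores of 18.6 and 18.0, and the 5% just outside had 16.5 and 16.1. Ccne2, encoding the E-type cyclin that drives the start of replication, stood at 32.5 and 38 CPM (unscaled) just inside and at 34.7 and 37.7 just outside. Of the members, 71.8% and 71.0% were again in the top 10% after thinning to 8000 UMIs. Members were slightly deeper than low-score cells, with a median of 17752 and 14688 UMIs against 16150 and 14278, and 4974 and 4555.5 detected genes against 4631 and 4328. The median mitochondrial share was 0.935% and 0.896% against 0.975% and 0.928%. No doublet caller was run. The 99th percentile of UMIs was lower in members (26920 and 23107) than in low-score cells (29317 and 25253).

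Markers of other cell types, summed here as CPM unscaled, were low or rested on single genes in both classes. Of 8 macrophage markers, Ptprc, C1qa and C1qb were at 0 in both classes of both libraries, and the list summed to 10.2 and 14 CPM in members against 13.1 and 11 in low-score cells, nearly all of it from Csf1r. The 5 endothelial markers summed to at most 1.31 CPM in any class, with Kdr and Cldn5 at 0. Of 4 neuron markers, Rbfox3 and Snap25 were at 0, and the sum of 63.1 and 73.9 CPM in members against 96.7 and 95 came from Tubb3. Red cell markers were at 0 in members. Of 8 markers of the GL261-GSCs culture, Cntn1 and Kit were at 0 and Sox10 made up nearly all of the 301 and 312 CPM in members and of the 345 and 361 CPM in low-score cells. The 2 GL261 libraries shared 23 cell barcodes, where 21.55 would be shared by chance.

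UMIs were summed per library over members (6876996 and 6063642 UMIs in replicates 1 and 2) and over low-score cells (31955183 and 30125192), and the 12 sums were compared with the edgeR quasi-likelihood test with the library as a block. The score genes were left out of the test. The spread was estimated over all 6 libraries together, so the GL261 calls rest in large part on the spread within the GL261-GSCs libraries. Of the 13786 other genes tested, 797 (5.78%) passed an adjusted p of 0.05 in GL261 (2679 had an unadjusted p under 0.05), 448 of them higher in members (3.25%) and 349 lower (2.53%), and genes past this threshold are called here. Of these, 296 were at least 1.5-fold higher (2.15%) and 186 at least 1.5-fold lower (1.35%). All 797 went the same way in both GL261 libraries, which a call for a shared change largely requires, so this is no independent support. The median log2 change over all tested genes was -0.03. The count rested on having both GL261 libraries: without replicate 1 it was 124 and without replicate 2 it was 160, a fit in which the spread of the lone library is taken from the other culture. Without GL261-GSCs replicate 4 the count was 1575. Scaling by library size alone gave 658 higher and 212 lower, so that 75.6% of calls were rises instead of 56.2%.

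Genes of the replication programme outside the score rose in number. The 10 lists for replication, its control, histones, repair and checkpoint held 150 tested genes, of which 83 rose, 0 fell at the threshold and 67 did not pass, against 3.25% called higher and 2.53% lower over all tested genes. Without GL261 replicate 1 the number that rose was 22, and without replicate 2 it was 44. Calls over all tested genes also became fewer in both of these fits, and the counts given below list by list for them share that fall. Falls were called in other settings: 6 beside 104 rises without GL261-GSCs replicate 4, 7 beside 93 against all other cells, 5 beside 83 with the top 5%, and 7 beside 113 with the 2 GL261 libraries alone. Over all tested genes the falls in these settings were 632, 381, 280 and 1490, and the rises 943, 539, 334 and 1736. These lists were chosen with earlier results of these data known, so the counts describe them and are no independent evidence of direction.

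**Figure D1:**
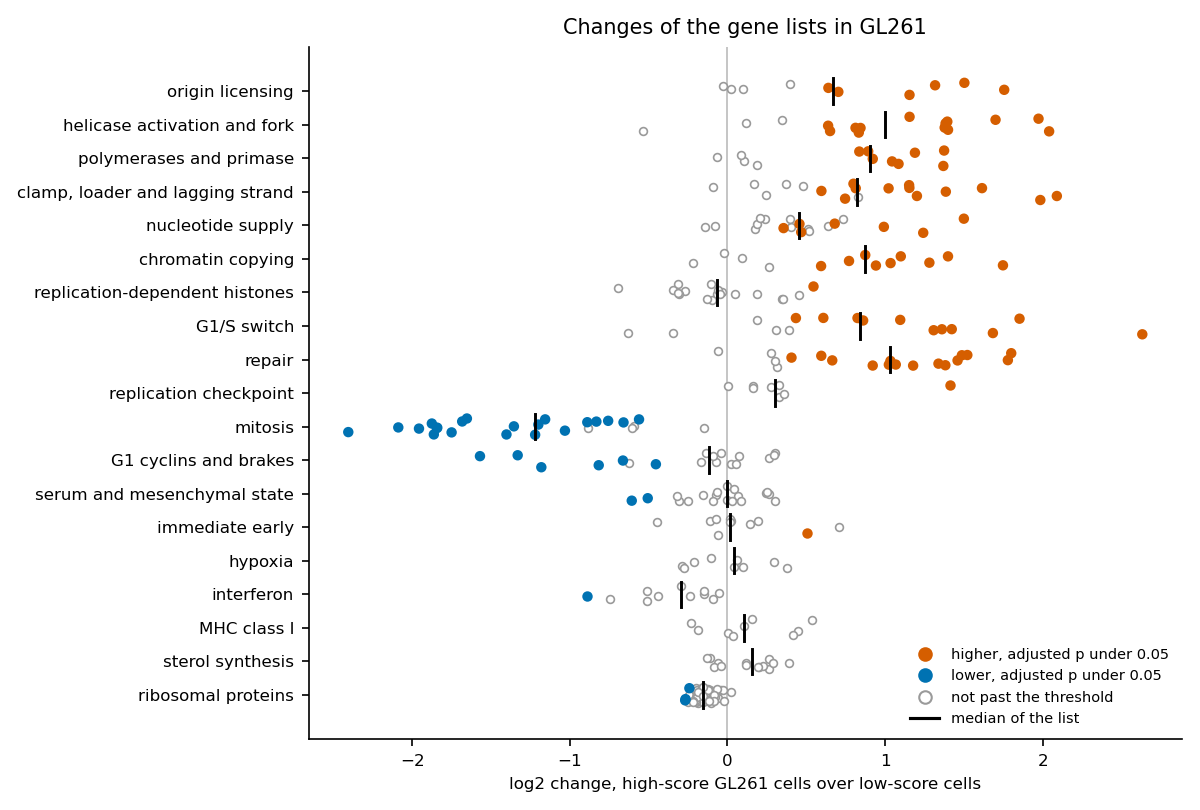
Log2 change of every tested gene of 19 lists (rows) between high-score and low-score GL261 cells (horizontal axis, log2). Each point is a gene, filled where its adjusted p was under 0.05, and the black bar is the median of the list. The replication and repair lists lie to the right with medians from 0.46 to 1.03, apart from the checkpoint list (0.30) and the histones (-0.07), while the mitosis list lies to the left with a median of -1.22.

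Origin licensing is the loading of the helicase. Of its 10 tested genes 6 rose, with a list median of 0.67 on the log2 scale. Cdt1, the loading partner of Cdc6, stood at 109 and 96.4 CPM in members against 31.4 and 29.3 in low-score cells, 3.38-fold higher (log2 change 1.76, SE 0.23, edgeR adjusted p = 0.000456). Mcm7, the remaining ring subunit that was not part of the score's sum, stood at 164 and 161 CPM against 54.3 and 60.3 (log2 change 1.5, SE 0.16, adjusted p = 0.000111). In both genes, which were among those chosen for the largest rises, the members of either library were above the low-score cells of both. Orc1, the origin-binding subunit that is made anew each cycle, rose by 1.32, Orc6 rose by 0.70, and Gmnn, the inhibitor of Cdt1, rose by 1.16. The core subunits Orc3, Orc4 and Orc5 had changes of -0.03, 0.10 and 0.02 and were not called. Leaving out a library gave 2 (without GL261 replicate 1) to 7 (without GL261-GSCs replicate 4) called genes.

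Helicase activation and fork genes rose in 13 of 16 cases (median 1.0). Mcm10, needed to activate the loaded helicase, went from 14.2 and 16.9 CPM in low-score cells to 59.4 and 62.4 in members, 3.93-fold higher (log2 change 1.97, SE 0.21, adjusted p = 0.000111). Wdhd1, which ties the polymerase alpha complex to the helicase, stood at 53.4 and 47.5 CPM against 11.5 and 13.1 (log2 change 2.04, SE 0.20). Clspn, encoding the fork protein claspin, stood at 83.1 and 100.6 CPM against 25.7 and 30.8 (log2 change 1.70). Cdc45 and Timeless, both travelling with the helicase, rose by 1.38 and 1.4. The exception to the direction was Dbf4, the activating partner of the Cdc7 kinase, with -0.53 and no call, while Cdc7 itself rose by 0.81. The list had 4 called rises without GL261 replicate 1 and 7 without replicate 2.

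Among polymerase and primase genes 8 of 12 rose (median 0.91). Pola2, a subunit of the polymerase that starts each new strand, stood at 64.1 and 70.6 CPM against 24.0 and 28.0 (log2 change 1.37, SE 0.14, adjusted p = 7.2e-05). Pole, the leading-strand polymerase, and Pold1, the lagging-strand one, rose by 1.37 and 1.19, and the primase genes Prim1 and Prim2 rose by 1.04 and 1.09. The 4 genes that did not pass were small or accessory subunits, Pold2, Pole3, Pole4 and Pold4, with changes between -0.07 and 0.19. The list had 1 call without GL261 replicate 1 and 4 without replicate 2.

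Clamp, loader and lagging-strand genes rose in 12 of 18 cases (median 0.82). Dna2, a nuclease that trims Okazaki fragments, had the largest change of this list, with 31.7 and 32.4 CPM against 7.01 and 8.06 (log2 change 2.09, SE 0.18, adjusted p = 1.8e-05). Lig1, the ligase that joins the fragments, stood at 114 and 108 CPM against 33.1 and 39.8, 3.06-fold higher. Pcna, the sliding clamp, stood at 124 and 134 CPM against 54.5 and 61.3, 2.22-fold higher (log2 change 1.15, SE 0.15, adjusted p = 0.000399). Of the single-strand binding proteins Rpa1 and Rpa2 rose by 1.15 and 1.39, and Rpa3 had 0.17 without a call. The calls of Lig1 and Pcna were lost without GL261 replicate 1, and the list then had 2 called genes, against 6 without replicate 2.

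Of 19 tested nucleotide supply genes 7 rose (median 0.46), and 10 did with library size scaling. Rrm2, the regulated subunit of ribonucleotide reductase, stood at 295 and 312 CPM in members against 111 and 148 (log2 change 1.24, SE 0.20, adjusted p = 0.00200). Dck, a salvage kinase, stood at 65.1 and 68.1 CPM against 30.3 and 37.0 (log2 change 0.99). Tyms, thymidylate synthase, stood at 203 and 214 CPM against 135 and 157, which did not pass (log2 change 0.52, adjusted p = 0.176). Tk1 and Rrm1 had 0.73 and 0.64, also without a call. The calls of Rrm2 and Dck were lost without GL261 replicate 1, where 0 genes of the list passed. With GL261 replicate 2 left out 3 passed, and 15 did with GL261-GSCs replicate 4 left out.

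Genes that copy chromatin behind the fork rose in 9 of 13 cases (median 0.87). Chaf1b, a subunit of the CAF-1 histone chaperone, stood at 40.6 and 41.9 CPM against 11.3 and 13.4, 3.36-fold higher (log2 change 1.75, SE 0.17, adjusted p = 5.7e-05). Dnmt1, the maintenance DNA methyltransferase, rose by 0.77, Hells, a remodeller that acts with it, by 1.4, and the histone chaperone Nasp by 0.87. Slbp, whose protein binds and stabilises histone mRNAs, stood at 173 and 167 CPM against 86.5 and 90.4 (log2 change 0.94, SE 0.17, adjusted p = 0.00596), a call that was lost without either GL261 library. Ssrp1 and Supt16, the subunits of the chaperone FACT, had 0.09 and 0.26 without a call. The list had 2 called genes without GL261 replicate 1 and 3 without replicate 2.

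Among replication-dependent histone genes Hist1h1d rose, 1 of 19 tested of 23 listed, a share near the 3.25% called higher over all tested genes (list median -0.07, and 0.01 with library size scaling), and 0 fell at the threshold, in edgeR and in DESeq2. Falls were called in other settings, 3 each without GL261-GSCs replicate 4, with the top 5% and with the 2 GL261 libraries alone, and 4 each against all other cells and with ranking by Gins2, Cdc6, Ung, Uhrf1 and Dtl. In the same order these settings had 632, 280, 1490, 381 and 252 falls over all tested genes. Hist1h1d, a linker histone gene, stood at 69.5 and 104 CPM against 44.6 and 76.2 (log2 change 0.54, SE 0.10, adjusted p = 0.00689), and lost its call without either GL261 library or against all other cells. With ranking by Gins2, Cdc6, Ung, Uhrf1 and Dtl its log2 change was -0.08. Here the libraries overlapped, since the low-score cells of replicate 2 were above the members of replicate 1. Hist1h1a had 0.46, Hist1h1e -0.10 and Hist1h2ae -0.27 without a call. These mRNAs largely lack a poly(A) tail, and how far their capture shaped the values was not tested. The histone result depended on the cells used for comparison: against the low-score cells whose mitosis-list share was at or below the library median, a comparison chosen after the data were seen, 13 of 18 tested histone genes were higher and the median was 1.08.

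Genes of the G1/S switch rose in 11 of 16 cases (median 0.84). Ccne2 was at 35.0 and 38.6 CPM in members and at 5.73 and 6.13 in low-score cells, 6.20-fold higher (log2 change 2.63, SE 0.20, adjusted p = 1.3e-05). Ccne1, its sister cyclin, was at 82.8 and 90.6 CPM against 32 and 32.6 (log2 change 1.42). Of the E2F family, the activator E2f1 stood at 92.5 and 88.0 CPM against 32.4 and 38.2 (log2 change 1.36, SE 0.12), and E2f2 rose by 1.85. The late-acting repressors E2f7 and E2f8 rose by 1.31 and 1.68, so activators and repressors of the family were higher in the same sums of cells. Ccna2, the A-type cyclin of S phase and G2, was instead lower in value, with 128 and 150 CPM against 181 and 253 (log2 change -0.63, adjusted p = 0.0640), and did not pass. Without GL261 replicate 1 the list had 4 called rises and without replicate 2 it had 7.

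Repair genes rose in 15 of 19 cases (median 1.03). Exo1, a nuclease of mismatch and break repair, stood at 55.4 and 63.9 CPM against 15.9 and 18.4 (log2 change 1.80, SE 0.19). Brca1, the hub of homologous recombination, stood at 81.5 and 96.1 CPM against 24.1 and 27.6, 3.43-fold higher (log2 change 1.78, SE 0.16, adjusted p = 3.3e-05). Msh6, which recognises mismatches, stood at 99.95 and 110 CPM against 34.0 and 39.1 (log2 change 1.52, SE 0.14). Of the 8 checkpoint genes 1 rose, a count too small to set the list apart from the 3.25% called higher over all tested genes. It was Chek1, the kinase that guards stalled forks, with 28.9 and 26.0 CPM against 9.44 and 11.3 (log2 change 1.41, SE 0.23, adjusted p = 0.00266). Its upstream kinase Atr had 0.16 and Chek2 had 0.01. The repair list had 7 calls without GL261 replicate 1, where Chek1 lost its call, and 9 without replicate 2.

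Beside these lists, the 12 largest rises included genes of less settled place. Slfn9, a Schlafen family gene, was at 119 and 99.9 CPM in members and at 24.5 and 17.2 in low-score cells, 5.28-fold higher and the largest rise under the naming rule (log2 change 2.40, SE 0.17, adjusted p = 1.3e-05). It lies on chr11:82978390-82991830 (GRCm38, minus strand). The transcription factor genes Tcf19 and Zfp367 stood at 89.8 and 77.5 CPM against 24.1 and 28.7, and at 73.6 and 75.1 against 24.4 and 27.5. Mms22l, which acts with Tonsl at damaged forks, stood at 80.2 and 77.8 CPM against 26.4 and 29.0. In every one of the 12 genes the members of either library lay above the low-score cells of both. The genes were chosen for large called changes, so this separation follows in large part from the choice and is a description. Of the 12, Tcf19 and Lig1 lost their calls without GL261 replicate 1.

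**Figure D2:**
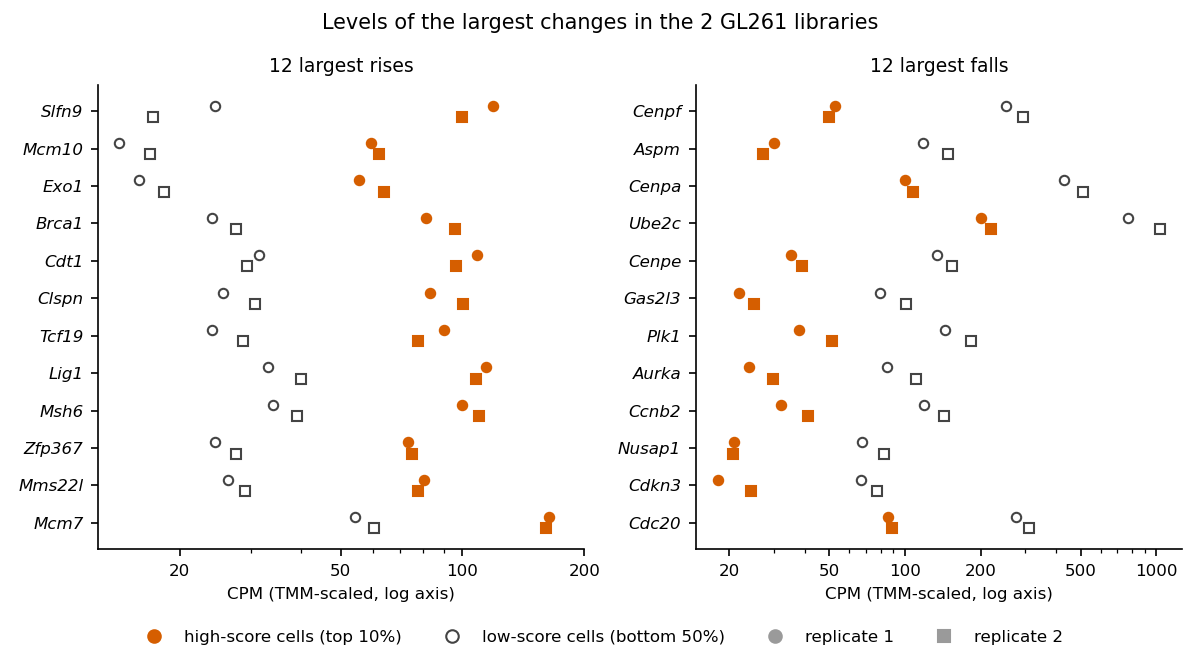
CPM (log axis) of the 12 largest rises and 12 largest falls among called genes in high-score (filled) and low-score (open) cells of both GL261 libraries (circles, replicate 1, and squares, replicate 2). The filled and open symbols of a gene do not overlap, which follows in large part from the choice of the largest changes. Slfn9 had 99.9 to 119 against 17.2 to 24.5 CPM and Cenpf 49.8 to 52.9 against 251 to 295.

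Mitotic genes were lower in members. Of 25 tested mitosis genes 21 fell and 0 rose (median -1.22), against 2.53% called lower over all tested genes. Cenpf, a kinetochore protein of late G2, stood at 52.9 and 49.8 CPM in members against 251 and 295 in low-score cells, 5.30-fold lower (log2 change -2.40, SE 0.17, adjusted p = 1.3e-05). Ube2c, the ubiquitin enzyme that works with the anaphase-promoting complex, stood at 200.2 and 220.0 CPM against 771 and 1033 (log2 change -2.09). Plk1 and Aurka, kinases of mitotic entry and the spindle, stood at 38 and 51.5 CPM against 144 and 183, and at 23.9 and 29.9 against 85.2 and 111. Ccnb1, the mitotic cyclin, stood at 15.1 and 16.9 CPM against 45.9 and 57.4 (log2 change -1.68). Among genes that did not pass, Mki67 had -0.89 (adjusted p = 0.0705), Top2a -0.60 (0.139) and Cdk1 -0.59 (0.0905). The list had 12 falls without GL261 replicate 1 and 10 without replicate 2.

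In sums over cells, fewer mitotic cells and less mitotic RNA per cell cannot be told apart. Cells were also counted, but by their RNA of the same mitosis list, so the counts cannot tell them apart either and are a description. Of the members, 2 of 387 cells in replicate 1 (0.517%, exact binomial 95% interval 0.0626 to 1.85%) were among the 10% of their library highest for the mitosis list after thinning. In replicate 2 it was 0 of 410 (exact binomial 95% interval up to 0.896%). Among low-score cells the shares were 16.3% (14.6 to 18.0%) and 17.1% (15.5 to 18.8%), and among the cells between they were 4.51% and 3.60%. The intervals cover counting error only. The median member had 17 UMIs of the mitosis list per 8000 in both libraries, against 28 and 44 in low-score cells.

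Low-score cells were not of a single kind, as the 10 score deciles showed. In the lowest decile the mitosis list summed to 2832 CPM (unscaled), averaged over both libraries, in decile 3 to 6075 and in decile 5 to 5900, and it then declined to 2434 in the members. By the mean of both libraries, all 25 mitosis genes had their highest decile between 2 and 5. The mean of the lowest decile was near that of decile 9, at 2868 CPM, and the lowest decile differed most between the libraries, with 1895 CPM in replicate 1 and 3770 in replicate 2. The members, at 2395 to 2474 CPM over both libraries, were above the lowest decile in replicate 1 and below it in replicate 2. When low-score cells were kept only where their mitosis-list share was at or below the library median, 20 of the 25 mitosis genes were higher in members and 0 lower. Those comparison cells were chosen on these genes and after the data were seen, so this is no test of the list.

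The licensing, polymerase and repair lists were higher at each step of the deciles, averaged over both libraries, from 344.6 to 870.0, from 504.4 to 983.0 and from 353.1 to 1110 CPM. The nucleotide list went from 1918 to 3493. The histone list instead was highest on average in the sixth decile at 1960 CPM, from 713 in the lowest, and stood at 1510 in the members. Replicate 1 had its highest histone value in decile 7, at 1752 CPM, and replicate 2 in decile 6, at 2302. Of 14 histone genes with at least 400 UMIs, 10 had their highest decile by the mean of both libraries between 5 and 7 and 0 in the tenth, while 9 of 10 licensing genes had it in the tenth. Hist1h2ae went from 105 in the first decile to 434 in the sixth and 261 in the tenth, and Ccna2 from 111 to a highest value of 242 in the third and 137 in the tenth. Rrm2 climbed throughout, from 57.9 to 299.6, and Ccne2 from 2.30 to 36.3. The deciles follow the score that chose the members, so these values are a description.

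**Figure D3:**
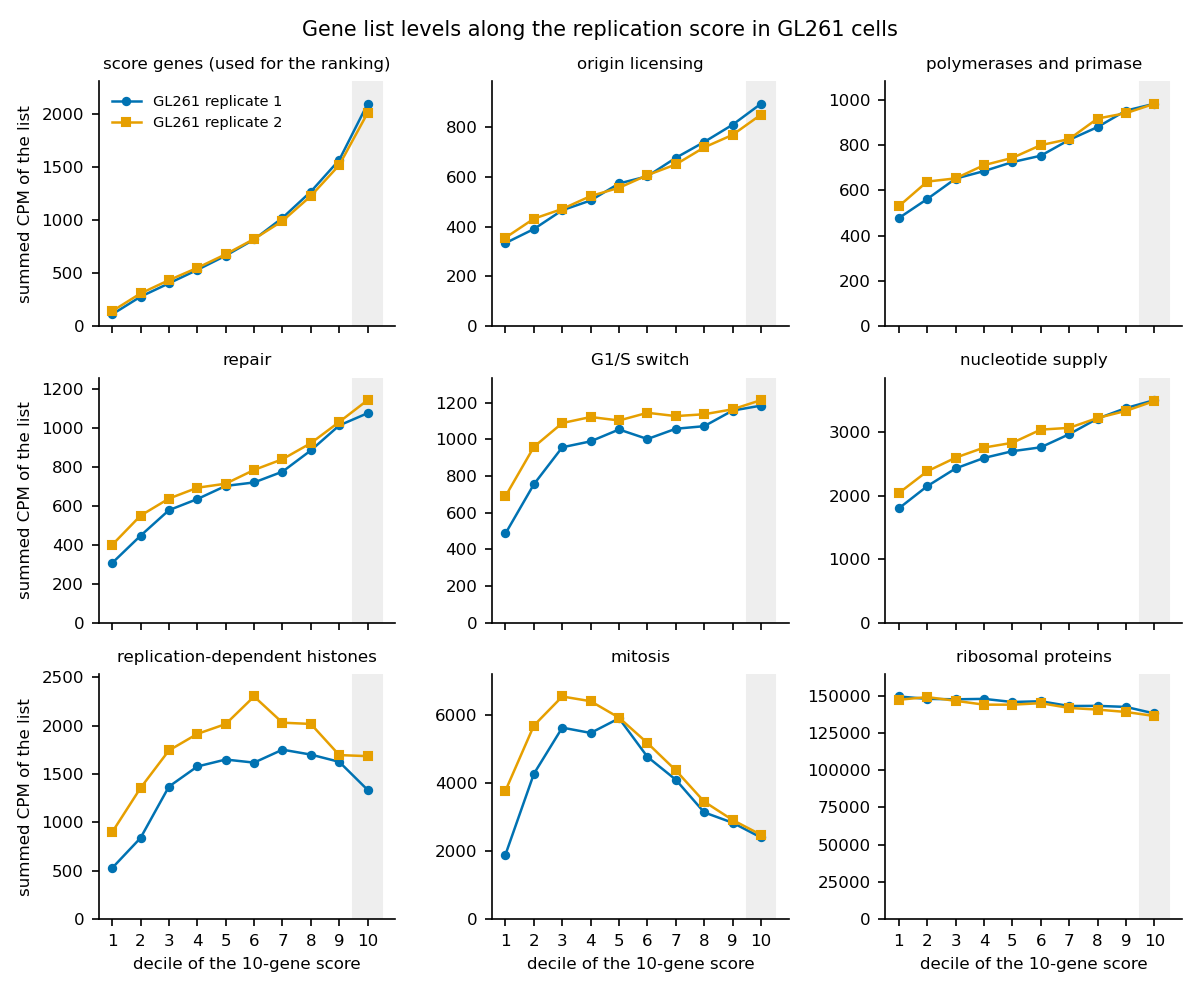
Summed CPM (unscaled) of 9 gene lists in each decile of the 10-gene score, from lowest to highest, in GL261 replicate 1 (circles) and replicate 2 (squares), with the members shaded. The replication lists climb to the tenth decile, the histones are highest in the middle at about 1960 CPM on average in the sixth, and the mitosis list is highest in deciles 3 to 5 at 5900 to 6075.

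Over all called genes the same 2 courses were seen. Of 426 called-higher genes with at least 400 UMIs, 380 had their highest decile in the tenth and 43 in the ninth. Of 338 called-lower genes, 242 had it in deciles 2 to 5 and 91 in decile 1. Of all 10611 tested genes with as many UMIs, 2705 had it in deciles 2 to 5, 2680 in decile 1 and 2483 in the tenth, so the share in decile 1 was near that over all genes. These positions follow in large part from the comparison that called the genes, and they are given as a description.

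Of 18 tested genes for G1 cyclins and brakes on the cycle 6 fell, 0 rose and 12 did not pass (median -0.11), against 2.53% called lower over all tested genes. Cdkn2d, encoding the inhibitor p19, stood at 28.3 and 32 CPM against 77.2 and 103 (log2 change -1.57, SE 0.14, adjusted p = 2.6e-05). Against low-score cells at or below the library median of the mitosis list, chosen after the data were seen, its log2 change turned to 0.32 (adjusted p = 0.178). Cdkn1b, encoding p27, stood at 38.4 and 34.4 CPM against 59.8 and 69 (log2 change -0.82, SE 0.12, adjusted p = 0.00108), a call lost without GL261 replicate 2. Cdkn2c, Ccng2, Cdkn2b and Btg1, which also restrain proliferation, fell by 1.18, 1.33, 0.66 and 0.45. Cdkn1b had its highest decile in the third in both libraries, at a mean of 65.6 CPM (unscaled), and not in the lowest, where it was at 58.2. Btg1, Btg2 and Cdkn2b instead were highest in the lowest decile in both libraries. By the mean of both libraries, 6 of 17 list genes with at least 400 UMIs were highest there, against 2680 of 10611 tested genes. Another 5 were highest in deciles 2 to 5 and 4 in the tenth. The cyclin Ccnd1, which acts earlier in G1, stood at 1137 and 1203 CPM against 1088 and 1131 (log2 change 0.08, adjusted p = 0.604), and Cdkn1a, encoding p21, had -0.09 without a call. Without GL261 replicate 1 the list had 2 falls and without replicate 2 it had 1. Rises were called in other settings: 2 beside 5 falls with library size scaling, 2 beside 6 without GL261-GSCs replicate 4, and 3 beside 8 with the 2 GL261 libraries alone. Rises over all tested genes numbered 658, 943 and 1736 in these settings.

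Of 19 tested genes for the serum and mesenchymal state 2 fell and 0 rose, against 2.53% called lower over all tested genes. Tagln, a smooth muscle actin-binding protein gene, stood at 70.2 and 87.9 CPM against 97.3 and 147 (log2 change -0.61, adjusted p = 0.00237), and Acta2, smooth muscle actin, fell by 0.51. The call of Tagln was lost without GL261 replicate 2, with the top 20%, with the library not in the design, and with either ranking by a part of the score genes. With either GL261 library left out the list had fewer calls. Without GL261-GSCs replicate 4 it had 4 falls and 4 rises, beside 632 and 943 over all tested genes. Vim, Nes and Cd44 had 0.03, -0.06 and 0.00, with signs that changed with the scaling for Nes and Cd44. Sox2, a stem cell transcription factor gene, stood at 59.1 and 50.6 CPM against 69.6 and 75.7 (log2 change -0.40, SE 0.11, adjusted p = 0.0432). Its call was lost without either GL261 library, without GL261-GSCs replicate 2 or 3, in DESeq2 and with library size scaling. It was also lost with thinning, the top 5%, a minimum of 5000 UMIs, ranking by Gins2, Cdc6, Ung, Uhrf1 and Dtl, and the library not in the design.

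Other programmes were counted list by list, beside 5.78% called over all tested genes. Ier2, an immediate early gene, was the only rise among 11 of its list, with 161 and 143 CPM against 117 and 98.2 (log2 change 0.50, adjusted p = 0.0359). Usp18, which restrains interferon signalling, was the only fall among 11 interferon genes, with 21.5 and 3.19 CPM against 35.6 and 8.56 (log2 change -0.89, adjusted p = 0.00825), and the libraries differed more than the classes. Tubb3, a neuronal tubulin, fell by 0.56. All of these calls were lost without either GL261 library, and that of Ier2 also without GL261-GSCs replicate 1 or replicate 3. Thinning and the top 20% ended the call of Ier2 too, and DESeq2 and a minimum of 5000 UMIs that of Tubb3. Both were also lost with ranking by Gins2, Cdc6, Ung, Uhrf1 and Dtl. With the 2 GL261 libraries alone the interferon list had 5 falls and the immediate early list 4 rises and 1 fall. Of all 13726 genes tested in that setting, 1736 rose and 1490 fell. In DESeq2 the interferon list had 0 falls. The hypoxia, MHC class I and sterol lists had 0 calls among 9, 9 and 14 genes in edgeR and in DESeq2, counts too small to set them apart from that share. Without GL261-GSCs replicate 4 the MHC class I list had 2 rises and the sterol list 3, beside 943 rises over all tested genes. With the 2 GL261 libraries alone the hypoxia list had 2 rises, the MHC class I list 2 and 1 fall, and the sterol list 7 rises. The 1736 rises and 1490 falls over all genes belong to that setting too. Of 78 ribosomal protein genes 3 fell, among them Rps27a with 4101 and 4377 CPM against 4814 and 5389 (log2 change -0.27), a call also lost without either GL261 library, and the list median was -0.15, or -0.08 with library size scaling, where 0 fell. The number of falls moved with the setting, from 0 in DESeq2 to 17 with a minimum of 12000 UMIs, 28 of 83 with no filter and 52 with the 2 GL261 libraries alone, and in GL261-GSCs 59 fell. Falls over all tested genes moved as well, with 201, 612, 913 and 1490 in these settings and 1428 in GL261-GSCs.

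The promoters of the genes that rose and fell were read from RefSeq (GRCm38.p6), 250 bases before to 50 bases after the start site. They were searched on both strands for letters of the E2F element (TTTCCCGC, TTTGGCGC or TTTCGCGC) and of the CHR (TTTGAA). Neither set of letters contains the other, but E2F matches on opposite strands can overlap. A promoter entry existed for 9924 of the 13786 genes tested, and a gene with several entries counted when any of them held a match. The 5 windows printed next show how the letters lie in promoters of a score gene, of genes that rose and of genes that fell. In the minus-strand genes the sequence is that of the minus strand, capitals mark the E2F letters in Mcm6, Mcm7 and Zfp367 and the CHR letters in Ube2c and Ccnb2, and overlapping matches appear as a longer run.
Mcm6: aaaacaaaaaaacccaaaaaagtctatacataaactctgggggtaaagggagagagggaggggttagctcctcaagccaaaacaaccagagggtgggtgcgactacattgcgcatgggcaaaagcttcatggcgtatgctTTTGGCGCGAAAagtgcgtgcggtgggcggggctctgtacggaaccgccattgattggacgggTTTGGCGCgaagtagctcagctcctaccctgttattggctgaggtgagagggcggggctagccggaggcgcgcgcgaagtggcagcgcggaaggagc
Mcm7: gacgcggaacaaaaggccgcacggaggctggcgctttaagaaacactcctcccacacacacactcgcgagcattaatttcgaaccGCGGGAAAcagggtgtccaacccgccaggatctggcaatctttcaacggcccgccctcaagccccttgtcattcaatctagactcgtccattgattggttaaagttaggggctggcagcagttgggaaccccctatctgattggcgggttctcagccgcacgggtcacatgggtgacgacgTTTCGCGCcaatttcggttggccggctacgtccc
Zfp367: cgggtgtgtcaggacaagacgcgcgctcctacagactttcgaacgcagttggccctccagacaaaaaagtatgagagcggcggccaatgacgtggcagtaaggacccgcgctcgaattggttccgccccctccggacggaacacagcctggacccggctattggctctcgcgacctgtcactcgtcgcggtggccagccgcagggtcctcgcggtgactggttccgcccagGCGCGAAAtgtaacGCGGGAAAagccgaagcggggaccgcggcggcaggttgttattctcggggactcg
Ube2c: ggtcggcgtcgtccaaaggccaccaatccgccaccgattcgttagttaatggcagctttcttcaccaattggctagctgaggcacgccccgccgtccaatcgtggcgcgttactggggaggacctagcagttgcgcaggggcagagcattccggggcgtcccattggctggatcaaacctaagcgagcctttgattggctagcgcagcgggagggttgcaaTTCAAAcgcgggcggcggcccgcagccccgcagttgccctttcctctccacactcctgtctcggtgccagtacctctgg
Ccnb2: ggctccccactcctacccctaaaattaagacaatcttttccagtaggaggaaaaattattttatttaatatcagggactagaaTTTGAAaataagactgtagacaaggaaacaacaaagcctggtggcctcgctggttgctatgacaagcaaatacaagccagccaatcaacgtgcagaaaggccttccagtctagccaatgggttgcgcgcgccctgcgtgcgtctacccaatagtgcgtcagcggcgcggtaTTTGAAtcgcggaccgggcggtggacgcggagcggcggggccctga

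These windows lie at chr1:128359656-128359955 (minus strand) for Mcm6, chr5:138171834-138172133 (minus strand) for Mcm7, chr13:64153150-64153449 (minus strand) for Zfp367, chr2:164769679-164769978 (plus strand) for Ube2c and chr9:70421505-70421804 (minus strand) for Ccnb2. Mcm6 held 3 matches of the E2F letters, starting 110, 106 and 47 bases before the start site. Mcm7 held 2, at 165 before and 16 after it. The window shown for Zfp367 also held 2, which lay 19 and 5 bases before the start. Ccnb2 held 2 matches of the CHR letters, at 167 bases before and 4 after the start, and Ube2c held 1, at 29 before.

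E2F letters were in 2.12% of all 27025 genes with a promoter entry and in 4.09% of the genes tested. They were in 6 of 8 score genes, in 6 of the 11 largest rises with an entry (54.5%), in 17.5% of genes called higher and in 4.86% of those called lower. By list the share was 55.6% in origin licensing, 50% in polymerases, 53.8% in the G1/S switch and 23.1% in repair. None of 17 nucleotide supply genes had them. CHR letters, being shorter, were in 20.2% of all promoters and in 14.1% of the genes tested. They were in 9 of the 12 largest falls, in 17 of 23 mitosis genes (73.9%), in 32.6% of genes called lower and in 12.4% of those called higher. Lists with many rises held them too, with 46.2% in the G1/S switch and 36.4% each in helicase activation and in chromatin copying. A match is a run of letters and does not show that a factor binds there.

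**Figure D4:**
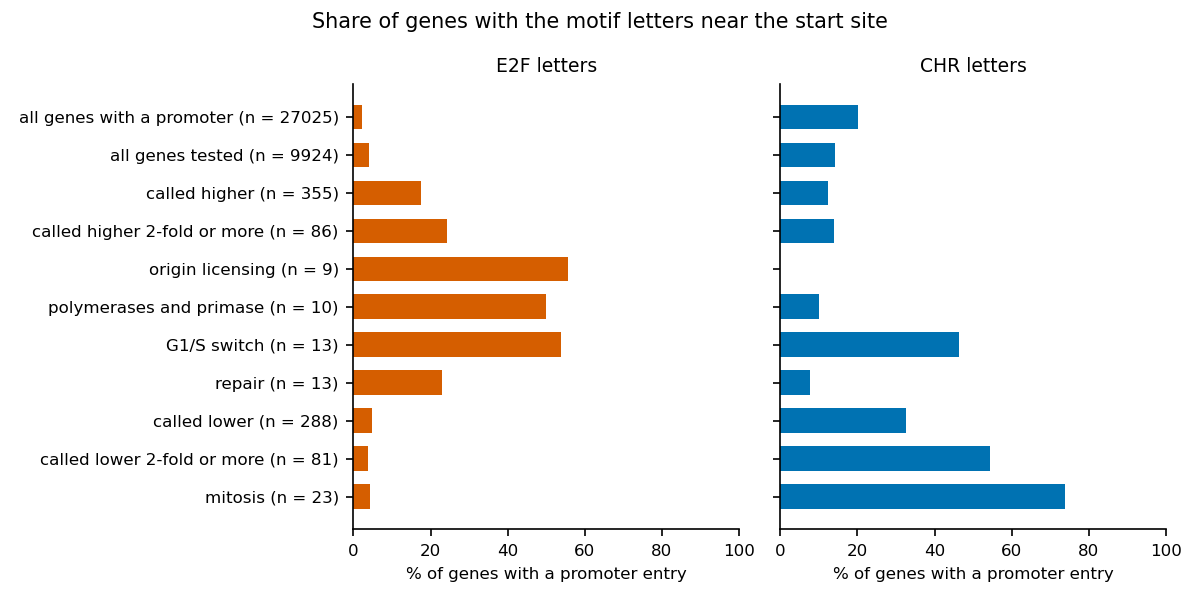
Share of genes (percent of those with a promoter entry, number in brackets) whose window around the start site held the E2F letters (left) or the CHR letters (right). Shares with E2F letters reach 53.8 to 55.6% in the licensing and G1/S lists against 4.09% of tested genes, and shares with CHR letters reach 73.9% in the mitosis list against 14.1%.

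The change was set beside that in GL261-GSCs, where the same rule was applied library by library. The lowest member score there was 20.6 ± 1.69 (SD, n = 4) per 10000 UMIs against 17.2 ± 0.334 (SD, n = 2) in GL261, and the gap between median members and low-score cells was 19.4 ± 0.913 against 15.5 ± 0.939. Both measures are of the score that chose the cells and are given as a description. In GL261-GSCs 2857 genes passed (20.7%), 1429 higher (10.4%) and 1428 lower (10.4%), with 4 libraries in place of 2. Of the 797 genes called in GL261, 784 had the same sign in GL261-GSCs. The same score chose the cells in both cultures, and the share with the same sign over all tested genes was not counted, so this is a description. Slfn9 had 2.48 there, Mcm10 1.96, Cenpf -1.36 and Ccne2 2.43.

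A test of the difference between the cultures passed for 3 genes (0.0218% of 13786), and 919 passed at an unadjusted p under 0.05. DESeq2 called 17. Emp1, an epithelial membrane protein gene, stood at 178 and 223 CPM in GL261 members against 274 and 324 in low-score cells (log2 change -0.58, SE 0.08), a call lost without GL261 replicate 1. In GL261-GSCs it stood at 6.02 to 9.39 against 29.1 to 44.9 (log2 change -2.17, SE 0.09), so that the changes differed by 1.59 (SE 0.12, adjusted p = 0.000109). Lgals3, encoding galectin-3, stood at 1159 and 1211 CPM against 1301 and 1276 in GL261, where it was not called, and at 8.21 to 135 against 30.7 to 368 in GL261-GSCs (difference 1.39, SE 0.14, adjusted p = 0.00181). Its level split the GL261-GSCs libraries. In replicates 1 and 2 it was at 27.0 and 8.21 CPM in members against 62.45 and 30.7. In replicates 3 and 4 it was at 135 and 110 against 350 and 368. The third gene, Il11, had fewer UMIs than the naming rule asks for. Emp1 and Lgals3 were lower in high-score than in low-score cells in each of the 6 libraries, and the ratio between the classes was wider in every GL261-GSCs library than in either GL261 library. Both genes were chosen by the test of this difference, so the wider ratios describe them and are no further support. Without GL261 replicate 1 the difference passed for 2 genes and without replicate 2 for 1, and without GL261-GSCs replicates 1 and 4 it passed for 13 and 86.

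**Figure D5:**
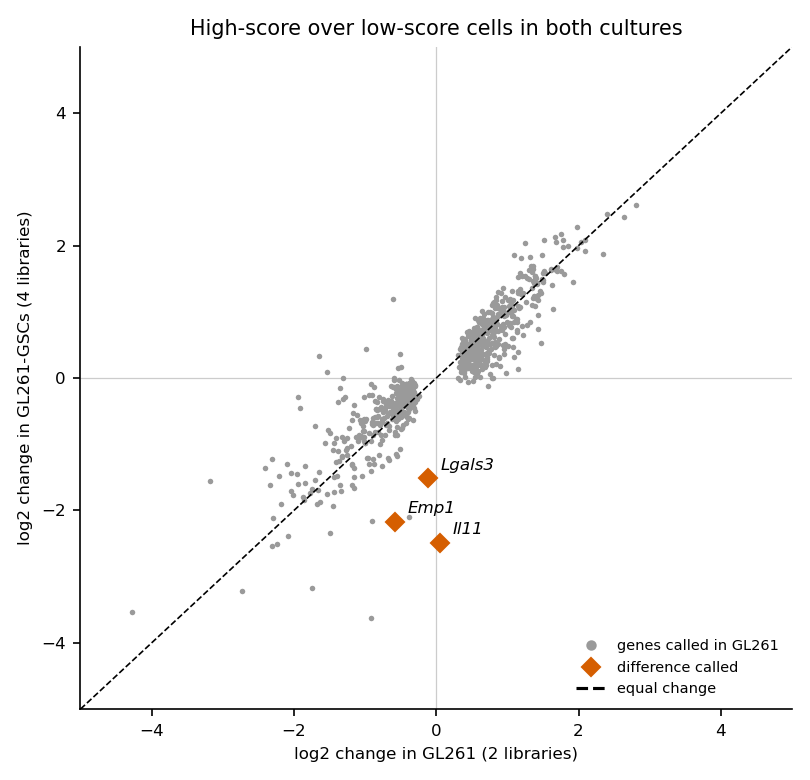
Log2 change between high-score and low-score cells in GL261 (horizontal axis, 2 libraries) and in GL261-GSCs (vertical axis, 4 libraries) for genes called in GL261 (grey) and for the 3 genes whose difference between cultures passed (diamonds). Most grey points lie near the dashed line of equal change, 784 of 797 with the same sign, and Emp1, Lgals3 and Il11 lie below it. The share with the same sign over all tested genes was not counted.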

How the data were processed

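The authors deposited raw UMI counts per gene and barcode for 6 libraries, made with Cell Ranger 4 (per the file headers) on the build mm10 per the submitters' processing notes, with no barcode filter. Total counts were 80899005 to 121309232 UMIs per library. Groups came from the sample titles. Members and gene lists were chosen with earlier results of these data known.

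UMIs were summed per library and class. The 12 sums were tested with edgeR 4.0.16 in R 4.3.3 (glmQLFit and glmQLFTest, TMM, filterByExpr, Benjamini-Hochberg, 2-sided) with terms for library and for class within each culture. Score genes stayed in the library sizes but out of the test. The block is the library, which gives both sums. An SE is the size of a log2 change over the root of its F value. The code was checked on simulated data.

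Named genes were the score genes, the 12 largest rises and falls among called genes with a mean of at least 32 CPM (predicted and mitochondrial genes left out), the smallest p of each list, the culture differences at that level, and a fixed set of cycle and glioma genes. Other list members are given to show a list, and a few are not reported here. Positions are from GENCODE M21 by identifier (54409 of 54446 matched without version). Alternatives covered DESeq2 1.42.0, scaling, filters, depth, cuts, ranking genes and each library left out.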

Additional observations from a re-analysis of the deposited data

Results flagged for a closer look

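In all, 3 genes changed differently in the 2 cultures by the test of the difference itself (edgeR quasi-likelihood, Benjamini-Hochberg). For Emp1 the log2 change in GL261 minus that in GL261-GSCs was 1.59 (adjusted p = 0.000109), and for Lgals3 it was 1.39 (adjusted p = 0.00181). For Il11, an interleukin of the IL-6 family, it was 2.54 (SE 0.34, adjusted p = 0.0195). Il11 was singled out after its values were seen. It stood at 26.7 and 24.8 CPM in high-score GL261 cells against 33.0 and 17.8 in low-score cells, with opposite signs in the 2 libraries. In GL261-GSCs it stood at 0.966 to 3.71 CPM against 6.83 to 12.2, lower in 4 of 4 libraries (log2 change -2.49, SE 0.27). The mitochondrial share of members minus low-score cells was -0.0351 ± 0.00562 percentage points (SD, n = 2) in GL261 and 0.0631 ± 0.0664 (SD, n = 4) in GL261-GSCs, and its part in these differences was not tested. Among 10 groups of values of the 4 GL261-GSCs libraries tested for a sample far from the others, 0 had one, where chance gives about 1 in 20. The 2 GL261 libraries were not tested in this way.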

How the results depend on the processing

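In place of the 797 calls, leaving out each library in turn gave 124 to 1575, the lowest without GL261 replicate 1 and the highest without GL261-GSCs replicate 4, and 1 to 86 in place of 3 for the difference between cultures. Without the replicate block, that is, with the library not in the design, 61 and 0 were called. The same replicate number in the 2 cultures marks no shared source in the labels, so no pairing across cultures was fitted. DESeq2 gave 524 and 17, no filter on low counts 1352 (913 of them lower) and 115, thinning to 8000 UMIs 472 and 10, and a minimum of 12000 UMIs 1461 and 62. The 2 GL261 libraries alone gave 3226 calls, 796 of them among the 797. The difference was called for 7 genes with the top 5%, 1 with the top 20%, 34 against all other cells, 7 with ranking by Mcm2 to Mcm6, and 5 with ranking by Gins2, Cdc6, Ung, Uhrf1 and Dtl. The cause of these shifts was not tested. The named genes called in GL261 kept their direction in these settings, apart from those given next.

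With the low-score cells limited to those at or below the library median of the mitosis list, chosen after seeing the data, 1350 and 26 genes were called. There the log2 change turned for Aspm (1.37), Aurka (1.03), Ccna2 (1.99), Ccnb1 (1.27), Cdc20 (0.25), Cdk1 (1.76), Cdkn2d (0.32), Cenpe (1.26), Cenpf (1.43), Gas2l3 (0.61), Mki67 (2.04), Nusap1 (1.67), Plk1 (1.22), Top2a (2.52), Ube2c (1.22), Sox2 (0.16), Ccnd1 (-0.02), Cd44 (0.13), Il11 (-0.57) and Vim (-0.07). This follows by construction for genes of the mitosis list. Values near 0 turned elsewhere. Cd44 was 0.07 with library size scaling, 0.02 in DESeq2, 0.03 in the 2 GL261 libraries alone, 0.04 against all other cells, 0.02 and 0.03 with minimums of 12000 and 5000 UMIs, and -0.03 to 0.03 with each library left out. Ccnd1 was 0.00, Vim -0.05 and Il11 -0.02 with no filter, Nes 0.01 with library size scaling, Cdkn1a 0.06 with the top 20%, and Vim -0.02 without GL261 replicate 1. Il11 ranged from -0.31 without GL261 replicate 2 to 0.46 without replicate 1. With ranking by Gins2, Cdc6, Ung, Uhrf1 and Dtl, Hist1h1d was -0.08 and Il11 -0.14. In the other comparisons of named genes, 1090 kept their direction and side of the threshold, 37 newly passed it and 93 no longer did.

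With 387 and 410 members per library, the depth limits the precision for genes of few UMIs, and the interval of a share covers counting error only.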

Other observations

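Of the 797 genes called in GL261, 679 were in none of the gene lists, 364 of them higher in members. The genes described in this section were picked after their values were seen. Fam111a, a protease gene of replication, was at 105 CPM in members and 37.7 in low-score cells on average over the 2 libraries (log2 change 1.49). Atad5, which takes the clamp off DNA, was at 98.9 against 37.1 CPM (1.42), and Tonsl, the partner of Mms22l, at 32.8 against 10.1 (1.70). Mybl2, encoding B-Myb, which later switches on mitotic genes, was at 80.7 against 32.3 CPM (1.33). Hat1, which acetylates new histone H4, was at 134 against 69.9 CPM (0.94). Casp8, a caspase gene, rose by 0.80. Hoxa3, a homeobox gene, was at 62.0 against 31.9 CPM (log2 change 0.96, and 0.44 in GL261-GSCs).

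Of 338 called-lower genes with at least 400 UMIs, 91 were highest in the lowest score decile, against 2680 of 10611 tested genes, a like share. Among the 91, Ddit4, an inhibitor of mTOR signalling, went from 388 CPM in the lowest decile to 128 in the tenth (log2 change in the test -1.10). Sqstm1, an autophagy receptor gene, went from 726 to 345 CPM (-0.69), and Tob1, an antiproliferative gene, from 90.3 to 43.4 (-0.67). Xbp1 and Ppp1r15a, both of the unfolded protein response, went from 107 to 66.0 CPM and from 71.5 to 47.2. Gjc3, a connexin gene, fell by 0.60 in GL261 and had -0.04 in GL261-GSCs. The difference between the cultures was called for neither Gjc3 nor Hoxa3.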
